A study of Mus musculus with 2 samples.

Results

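The Hox genes of the mouse code for homeodomain transcription factors and lie in 4 clusters, Hoxa, Hoxb, Hoxc and Hoxd. Genes at the same place in different clusters form a paralogue group, numbered from 1 at the end of a cluster that is used nearest the head to 13 at the end used nearest the tail. In most embryonic tissues the numbers of the active groups mark the position along the head-to-tail axis, and the lung forms from the foregut, where the lower and middle groups are used. In mice, Hoxa5 is required for normal development of the trachea and lung, and its paralogues Hoxb5 and Hoxc5 act with it.

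The members are the 39 genes coding for protein whose symbol is Hox, a letter from a to d and a number, out of 43346 gene rows and 21474 rows of genes coding for protein. Hoxa has 11 of them on chromosome 6, Hoxb 10 on chromosome 11, Hoxc 9 on chromosome 15 and Hoxd 9 on chromosome 2 (mm10). They were measured by total RNA-seq of whole lung from healthy B6NCrl mouse embryos of both sexes at embryonic day 16.5, with no treatment or mutation in the labels, in 2 biological replicates that form a single group. Replicate 2 was a pool of 41 embryos, and replicate 1 was also a pool, of a size the labels do not give. With 1 group and 2 replicates no test between conditions exists: values are given per replicate or as mean ± SD with n = 2, and an SD over 2 values can fall below counting error at low counts. The libraries held 38852470 and 27145411 expected counts, of which the Hox genes had 6035 and 3929. Every gene of a 10-gene lung list, among them Nkx2-1, Sftpc and Foxf1, reached 1 TPM in both replicates, as did 61.5% of all genes coding for protein.

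The clusters also hold the genes of the miR-10 and miR-196 microRNA families, whose members have known targets among Hox mRNAs. The mature 5p strands (RefSeq, GRCm38.p6) are shown with the seed, bases 2 to 8, in capitals, because the seed sets the families apart: miR-10a from the Hoxb cluster and miR-10b from the Hoxd cluster share ACCCUGU, and miR-196a from the Hoxb and Hoxc clusters and miR-196b from the Hoxa cluster share AGGUAGU.
miR-10a-5p: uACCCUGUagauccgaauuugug
miR-10b-5p: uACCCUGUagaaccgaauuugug
miR-196a-5p: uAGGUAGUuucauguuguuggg
miR-196b-5p: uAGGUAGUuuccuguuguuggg
The mRNA of Hoxb8 is a known cleavage target of miR-196 in mouse embryos, and the site is shown in the sense of the mRNA. It was chosen because Hoxb8, below 1 TPM in both replicates, is the next gene along after Hoxb7, the highest-numbered detected Hoxb gene. The site lies at chr11:96284888-96284909 on the plus strand, begins 418 nt after the stop codon, and pairs with miR-196a-5p at 21 of 22 positions by Watson-Crick pairs (capitals) and at 1 by a G-U wobble (lower case).
Hoxb8 site: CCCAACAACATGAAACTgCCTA
All 6 miRNA gene rows of the clusters were at 0 TPM in both replicates. The libraries were made from RNA over 200 nt, so mature miRNAs were not measured, and the expression of miR-196 in this tissue is not given by these files.

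Promoters are shown for 3 genes of the Hoxa cluster: Hoxa5, its highest gene, Hoxa7, its highest-numbered detected gene, and Hoxa9, the next gene along. Each run is the 250 bases before a RefSeq start (GRCm38.p6, minus strand, printed 5′ to 3′), and CpG dinucleotides are in capitals. The windows are chr6:52204588-52204837 for Hoxa5, chr6:52218574-52218823 for Hoxa7 and chr6:52227371-52227620 for Hoxa9. Hoxa7 and Hoxa9 each have several annotated starts, of which 1 is shown.
Hoxa5 promoter: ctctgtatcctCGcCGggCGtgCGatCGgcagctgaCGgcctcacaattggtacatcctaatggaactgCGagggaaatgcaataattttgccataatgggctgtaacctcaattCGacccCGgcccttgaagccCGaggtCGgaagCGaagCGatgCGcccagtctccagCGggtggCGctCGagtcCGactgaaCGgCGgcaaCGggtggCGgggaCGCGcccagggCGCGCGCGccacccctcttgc
Hoxa7 promoter: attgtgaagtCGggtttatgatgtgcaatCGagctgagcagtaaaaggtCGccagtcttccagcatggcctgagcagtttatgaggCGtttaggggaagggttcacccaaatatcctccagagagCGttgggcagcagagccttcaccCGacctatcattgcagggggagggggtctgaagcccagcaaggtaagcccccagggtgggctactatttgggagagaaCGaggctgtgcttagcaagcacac
Hoxa9 promoter: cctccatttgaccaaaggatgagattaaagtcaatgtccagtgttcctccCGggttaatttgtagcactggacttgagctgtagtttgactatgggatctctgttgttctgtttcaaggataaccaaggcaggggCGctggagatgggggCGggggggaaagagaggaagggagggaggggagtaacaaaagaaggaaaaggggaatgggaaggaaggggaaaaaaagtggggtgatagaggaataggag
These windows hold 28 CpG for Hoxa5, 7 for Hoxa7 and 3 for Hoxa9, at a GC content of 63.6%, 54.8% and 49.6%. Of the 39 genes, 22 matched the RefSeq promoter table, with 24 windows, and 6 of these 22 belong to the 13 detected genes. The median over the 24 Hox windows was 12.5 CpG and 58.6% GC, against 6 CpG and 52.4% GC over 32851 windows of all genes. Windows of detected genes had a median of 16 CpG and those of the other Hox genes 12, and their ranges overlapped at 6 to 28 and 2 to 35. Each of 4 short words was searched on both strands, and they do not contain each other. TATAAA, a core promoter word, was in 16.7% of Hox windows and 12.4% of all windows. TGATNNAT, a word bound jointly by PBX and HOX proteins, was in 16.7% of Hox windows and 7.68% of all windows. AGGTCA, 1 repeat unit of a retinoic acid receptor site, was in 25% of Hox windows and 14.02% of all windows. CCAAT, bound by the factor NF-Y, was in 58.3% of Hox windows and 33.8% of all windows. A match is a description of the letters, not of binding.

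Detected expression lay in part of 2 clusters. At a level of 1 TPM (reads divided by transcript length and scaled to a fixed sum per library) in both replicates, 13 of 39 Hox genes were detected, against 61.5% of all genes coding for protein. They were 7 of 11 Hoxa and 6 of 10 Hoxb genes, among them every gene from Hoxa2 to Hoxa7 and from Hoxb2 to Hoxb7. None of the 9 Hoxc genes and none of the 9 Hoxd genes reached the level in both replicates. All 13 lay in paralogue groups 1 to 7, which hold 20 genes, and none of the 19 genes of groups 8 to 13 was detected. Of the 26 genes below the level, 4 had no count in either replicate (Hoxa13, Hoxc12, Hoxc13 and Hoxd12), 9 had no count in 1 replicate, and 13 had counts in both. In whole tissue, fewer cells that use a gene and less RNA per cell cannot be told apart.

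**Figure D1:**
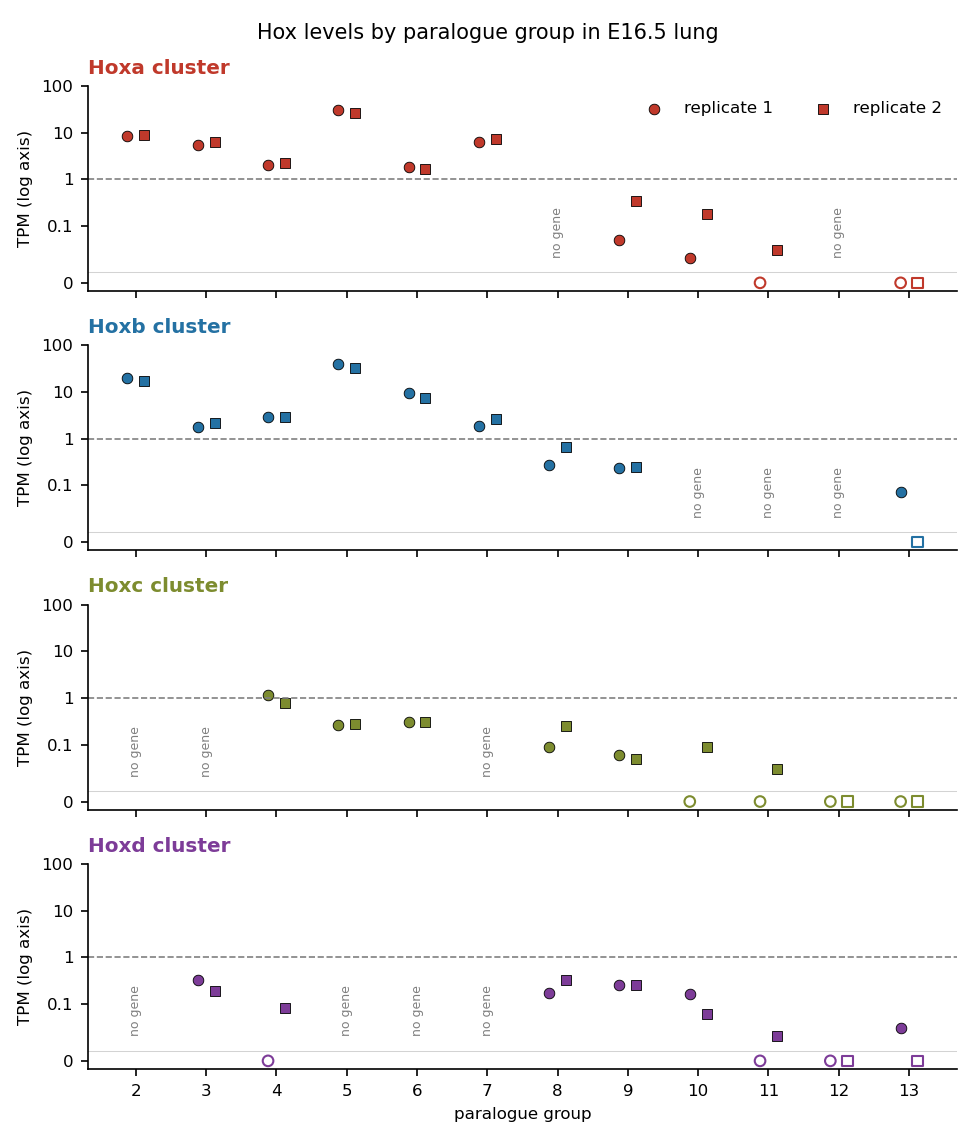
TPM of the Hox genes of groups 2 to 13 on a log axis against the paralogue group, 1 panel per cluster, with circles for replicate 1, squares for replicate 2, open symbols on the lowest line for 0 and a dashed line at 1 TPM. Hoxa2 to Hoxa7 and Hoxb2 to Hoxb7 lie above the dashed line in both replicates, and Hoxc4 lies above it in replicate 1 (1.14 TPM) and below it in replicate 2 (0.77 TPM).

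The summed level of the 39 genes was 134 and 124 TPM in replicates 1 and 2 (129 ± 7.51 TPM), or 0.0134% and 0.0124% of all TPM. Hoxa made up 43.0% ± 2.33 of the sum, Hoxb 54.8% ± 2.42, Hoxc 1.40% ± 0.0378 and Hoxd 0.737% ± 0.0538. Hoxb exceeded Hoxa in both replicates, at 76.0 against 55.6 TPM in replicate 1 and 65.8 against 55.3 TPM in replicate 2. The posterior mean TPM, a deposited alternative estimate that does not fall to 0, gave Hoxd a share of 1.30%, over 1.5 times the value above.

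By paralogue group the sum was uneven. Group 5 held 50.2% ± 2.44, group 2 held 20.99% ± 0.274, group 6 held 8.18% ± 0.893 and group 7 held 7.0% ± 1.41. Groups 3 and 4 held 6.34% ± 0.949 and 4.67% ± 0.277. Groups 2 to 6 together took 90.4% ± 2.38, with 92.1% in replicate 1 and 88.7% in replicate 2. Groups 8 to 13 summed to 1.41 and 2.56 TPM from 79 and 87 expected counts. The profile had a high point at group 2 and a higher one at group 5, with a trough at groups 3 and 4.

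**Figure D2:**
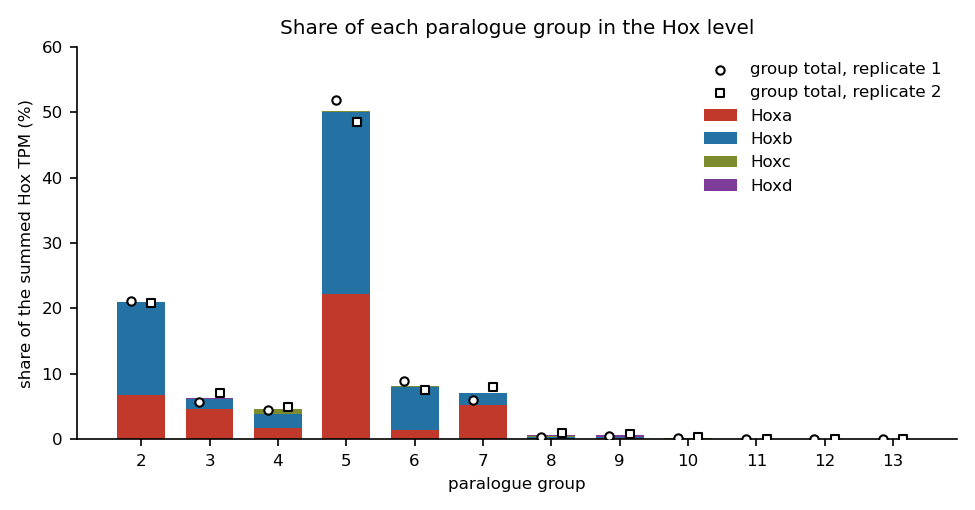
Share of paralogue groups 2 to 13 in the summed Hox TPM in percent, as stacked bars of the mean of both replicates coloured by cluster, with open circles and squares for the group total in replicates 1 and 2. Group 5 stands at 50.2% and group 2 at 20.99%, and Hoxb makes up the larger coloured part of both.

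Group 5 led the order. Hoxb5 (chr11:96303336-96306121, plus strand) was at 39.1 and 32.8 TPM in replicates 1 and 2, a mean of 35.9 ± 4.46 TPM. Hoxa5 (chr6:52201754-52204587, minus strand) was at 30.5 and 27.0 TPM, a mean of 28.7 ± 2.47 TPM. Each was higher in replicate 1, and in each replicate Hoxb5 was above Hoxa5. Their means lay at percentile 80.03 and 76.2 of all genes coding for protein. The third group 5 gene, Hoxc5, was at 0.26 and 0.27 TPM from 16 and 14 expected counts, so that this paralogue set was carried by its Hoxb and Hoxa members.

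Group 2 came next. Hoxb2 (chr11:96350525-96354012) was at 20.2 and 16.8 TPM, a mean of 18.5 ± 2.37 TPM. Hoxa2 (chr6:52162417-52164831), which specifies the second branchial arch, was at 8.32 and 8.94 TPM, a mean of 8.63 ± 0.438 TPM. Hoxb2 was above Hoxa2 in both replicates. In the embryo both genes are best known from the hindbrain and neural crest.

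Groups 3 and 4 were lower. Hoxa3, which is required for the thymus and parathyroid, was at 5.56 and 6.33 TPM, and its paralogue Hoxb3 at 1.74 and 2.16 TPM. Hoxb4, known as a regulator of blood stem cells, was at 2.87 and 2.89 TPM, and Hoxa4 at 2.00 and 2.28 TPM. Hoxd3 was at 0.32 and 0.19 TPM, and Hoxd4 at 0 and 0.08 TPM. Exons of Hoxd3 and Hoxd4 share 62.3% and 52.3% of their bases with other genes of the same strand, including each other, so how their few reads were shared out is uncertain. Hoxc4 (chr15:103018934-103036852), the highest gene outside Hoxa and Hoxb, was at 1.14 and 0.77 TPM from 56 and 27 expected counts, and passed 1 TPM in replicate 1. Exact 95% Poisson intervals, which cover counting error only, put Hoxc4 at 0.857 to 1.47 TPM (replicate 1) and 0.510 to 1.13 TPM (replicate 2), so the intervals overlapped each other and the threshold.

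Groups 6 and 7 held the upper edge of detection. Hoxb6 was at 9.72 and 7.37 TPM, and Hoxa6 at 1.83 and 1.67 TPM from 37 and 24 expected counts. Hoxa7 was at 6.23 and 7.23 TPM and Hoxb7 at 1.84 and 2.67 TPM. The higher paralogue was thus the Hoxb gene in group 6 and the Hoxa gene in group 7. Hoxc6 was at 0.30 and 0.31 TPM from 7 expected counts in each replicate.

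At the opposite end, Hoxb1, known for patterning of the hindbrain, was at 0 and 0.14 TPM and Hoxd1 at 0 and 0.03 TPM, from at most 3 counts. With no count, the 3 counts that a count of 0 allows put the upper limit for Hoxb1 in replicate 1 at 0.0860 TPM.

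Beyond group 7 the level was lower in both expressed clusters, between neighbouring genes. Hoxa9 was at 0.05 and 0.35 TPM, against 6.23 and 7.23 TPM for its neighbour Hoxa7, a log2 ratio of -5.66 ± 1.83. Hoxb8 was at 0.27 and 0.67 TPM, against 1.84 and 2.67 TPM for its neighbour Hoxb7, a log2 ratio of -2.38 ± 0.55. Both differences had the same sign in both replicates, but their size rests on 4 and 9 expected counts for Hoxa9 and 18 and 21 for Hoxb8. In Hoxa, the 6 genes of groups 2 to 7 had single values from 1.67 to 30.5 TPM and the 4 genes of groups 8 to 13 from 0 to 0.35 TPM. In Hoxb, the 6 genes of groups 2 to 7 had single values from 1.74 to 39.1 TPM and the 3 genes of groups 8 to 13 from 0 to 0.67 TPM. The sets did not overlap in either cluster, while Hoxb1, at the low-numbered end, lay as low as the high-numbered genes. The start of Hoxb13 lies 171 kb from that of Hoxb1 and the start of Hoxb9 94.3 kb from it.

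The TPM of Hoxa9 differed more between replicates than its reads did. Its estimated transcript length, an average over its annotated transcripts, was 3226 nt in replicate 1 and 1489.8 nt in replicate 2, and its CPM was 3.22 times as high in replicate 2. By the posterior mean it was at 0.29 and 0.69 TPM. Hoxb8 had an estimated length of 2635 nt in replicate 1 and 1802.4 nt in replicate 2. The estimate was thus shorter in the replicate with the higher TPM for both genes, but Hoxb9, also with several transcripts and few reads, had 2269 nt in both replicates, and Hoxc8 had 1868 nt in replicate 1 and 2024 nt in replicate 2, where its TPM was higher.

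**Figure D3:**
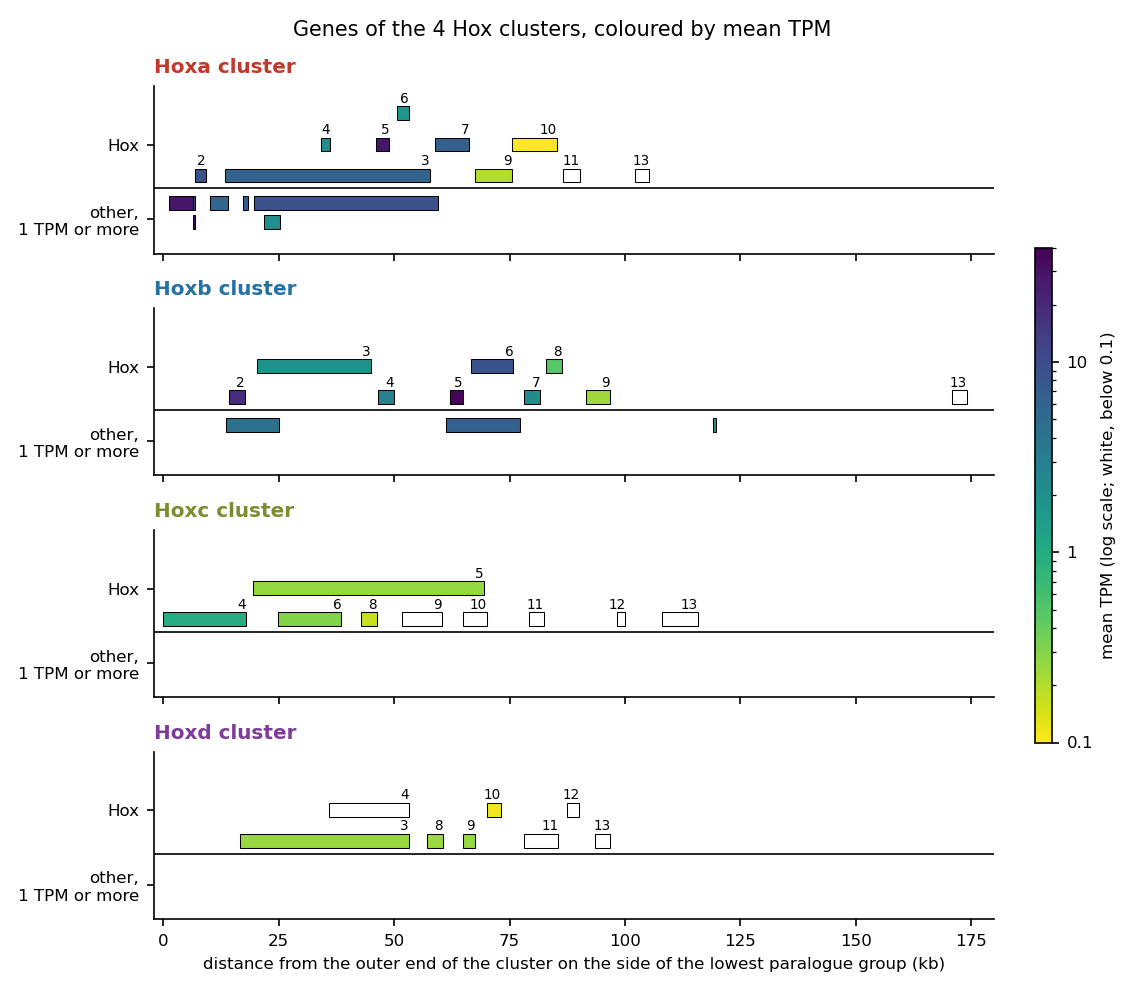
Genes of each cluster, with Hox genes of groups 2 to 13, by distance in kb from its outer end on the side of the lowest paralogue group, coloured by mean TPM on a log scale and white below 0.1 TPM, with the Hox genes above the line, numbered by group, and other annotated genes at 1 TPM or more below it. The dark boxes of Hoxa lie between Hoxa2 and Hoxa7 and those of Hoxb between Hoxb2 and Hoxb7, and no gene is drawn below the line for Hoxc or Hoxd.

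The genes of groups 8 to 13 had few reads each. Hoxd9 was at 0.26 TPM in both replicates from 14 and 10 counts, and Hoxb9 at 0.23 and 0.25 TPM from 13 and 10 counts. Hoxd8 was at 0.17 and 0.32 TPM, and Hoxc8 at 0.09 and 0.25 TPM. None of the genes of groups 8 to 13 passed 0.67 TPM in any replicate. Hoxc9, Hoxa10, Hoxd10 and Hoxc10 lay between 0 and 0.18 TPM. Among the genes known for limb, urogenital or skin roles, Hoxa11, Hoxc11 and Hoxd11 had no count in replicate 1 and 1 each in replicate 2. Hoxb13 had 4 counts in replicate 1 and Hoxd13 had 2, with none in replicate 2. For Hoxa13, at 0 in both, a count of 0 allows up to 0.111 TPM (replicate 1) or 0.157 TPM (replicate 2).

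The summed reads of groups 8 to 13 were 1.58 times as high in replicate 2 as in replicate 1 when scaled to the library total (CPM), and those of groups 1 to 7 were 0.923 times as high. The first ratio rests on only 79 and 87 expected counts. Groups 8, 9 and 10 were at 1.88, 1.34 and 1.97 times, but group 13 had 6 counts in replicate 1 and 0 in replicate 2. Markers of other tissues differed between the replicates. The liver list (9 of 9 genes found) summed to 202 and 893 TPM in replicates 1 and 2, the skeletal muscle list (9 of 9) to 228 and 647 TPM, and the thymus list (8 of 8) to 13.7 and 34.7 TPM. The heart list summed to 1010 and 784 TPM, the cartilage and rib list to 77.7 and 36.9 TPM and the peripheral neuron list to 24.99 and 32.3 TPM. Most of the difference in the heart list came from Myl7, at 564.91 and 376.56 TPM. Of its 7 genes whose mean reached 1 TPM, 5 were lower in replicate 2. The other 2 were higher there, Nppa at 102.05 and 136.31 TPM and Actn2 at 28.92 and 35.16 TPM. Most of the difference in the cartilage and rib list came from Ibsp, at 48.29 and 9.68 TPM. In that list Col2a1 was at 16.05 and 14.21 TPM and Col9a1 at 11.02 and 10.68 TPM, and Matn1 and Comp were higher in replicate 2. A list for kidney and hindgut, tissues from further back in the body, stayed at 0.14 and 0.40 TPM, with 1 of its 5 genes at 0 in both. The part of these tissues in the Hox levels was not tested.

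Within a library, ratios between paralogues do not depend on its scaling. A sign was taken to hold where both replicates shared it and the mean exceeded 2 SD, and by this rule it held in all 6 Hoxb and Hoxa pairs that were detected together. Hoxb6 exceeded Hoxa6 by 2.28 ± 0.19 on the log2 scale (4.84-fold), Hoxb2 exceeded Hoxa2 by 1.09 ± 0.26 (2.13-fold), Hoxb4 exceeded Hoxa4 by 0.43 ± 0.13 (1.35-fold) and Hoxb5 exceeded Hoxa5 by 0.32 ± 0.06 (1.25-fold). Hoxb3 over Hoxa3 was at -1.61 ± 0.09 and Hoxb7 over Hoxa7 at -1.60 ± 0.23. The leading cluster thus changed from group to group, with Hoxb higher in groups 2, 4, 5 and 6 and Hoxa in groups 3 and 7.

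The 10 neighbouring pairs of groups 2 to 7 in which both genes were detected showed no run in 1 direction along the clusters. The higher-numbered gene was above its neighbour in 4 pairs and below it in 6, and the sign held in 10 of 10. Hoxa5 exceeded Hoxa4 by 3.75 ± 0.26 and Hoxb5 exceeded Hoxb4 by 3.64 ± 0.19, which are differences of 13.4-fold and 12.4-fold between adjacent genes. On the other side, Hoxa6 over Hoxa5 was at -4.04 ± 0.03 and Hoxb6 over Hoxb5 at -2.08 ± 0.10. Hoxb3 over Hoxb2 was at -3.25 ± 0.41. The group 5 genes therefore stood above both of their neighbours in each cluster. Hoxa3 over Hoxa2 was at -0.54 ± 0.06 from TPM but at 0.00085 from counts not divided by length, so its direction depended on the length correction. Hoxb4 over Hoxb3 was at 0.57 ± 0.21, and at 0.39 ± 0.23 with the posterior mean TPM, where the sign no longer held by the rule.

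**Figure D4:**
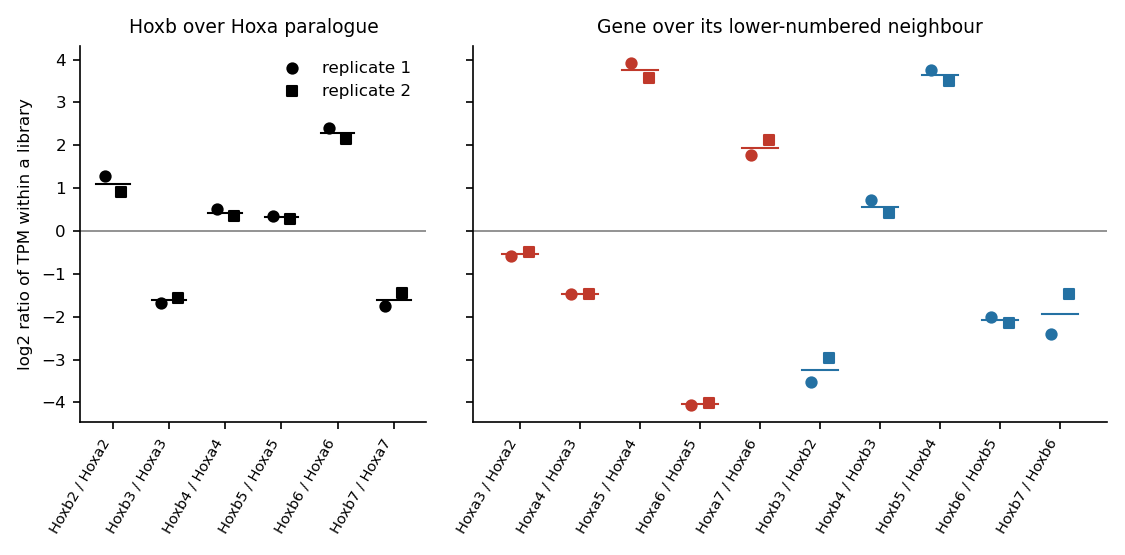
Log2 ratio of TPM within a library for the 6 Hoxb and Hoxa paralogue pairs (left) and the 10 neighbouring pairs, higher-numbered gene over lower (right, Hoxa red and Hoxb blue), with circles and squares for replicates 1 and 2 and a bar for their mean. No pair crosses 0 between replicates, and the pairs of Hoxa5 over Hoxa4 and Hoxb5 over Hoxb4 reach 3.75 and 3.64.

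In rank order of the mean, Hoxb5, Hoxa5 and Hoxb2 were set apart from each other and from the rest, since their ranges of mean ± SD did not overlap. Hoxa2 and Hoxb6 overlapped and changed places between replicates, as did Hoxb7 and Hoxa4, and Hoxb3 and Hoxa6. Hoxa7 and Hoxa3 overlapped within 1 SD although Hoxa7 was above Hoxa3 in both replicates. As a description over the genes of a cluster, which share their libraries, Spearman's rho between group number and TPM was -0.68 in both replicates for Hoxa (11 genes), -0.26 and -0.37 for Hoxb (10 genes), -0.94 and -0.96 for Hoxc (9 genes) and -0.18 and -0.61 for Hoxd (9 genes). The ranks were most nearly in order in Hoxc, where no level passed 1.14 TPM.

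Of the 45 other annotated genes that overlap the cluster spans, 10 were detected in both replicates, 7 in Hoxa, 3 in Hoxb and none in Hoxc or Hoxd. Only 3 of the 45 code for protein, a class of which 61.5% was detected over all genes. Of the 10, 9 lie on the strand opposite to the Hox genes, as do 26 of all 45 and 17 of the 20 in Hoxa. In both replicates 28 of the 45 were at 0, but several, among them Mir196b, Mir10b and Mir615, could take no reads. Their effective length, the length left for a read to start, was 0 in replicate 1. In Hoxc every row but Hotair had 76 nt or less, so the absence of detected rows there says little. Hotairm1, a noncoding RNA of the low-numbered end of Hoxa, was at 34.3 and 22.5 TPM. Hoxaas3 was at 9.75 and 8.13 TPM, Gm15050 at 7.94 and 6.55 TPM, and Hoxaas2 at 5.61 and 5.55 TPM. In Hoxb, Hoxb5os was at 7.39 and 5.21 TPM and Hoxb3os at 4.54 and 3.88 TPM. Another detected opposite-strand gene of Hoxa, 5730596B20Rik, was at 2.11 and 2.02 TPM. The opposite-strand genes with the most reads lay in the same stretches as the detected Hox genes. Where their exons overlap those of Hox genes, part of their reads can be Hox reads, so this closeness is no independent result. Hotair in Hoxc and Hoxa11os in Hoxa had no count, and Haglr in Hoxd was at 0 and 0.11 TPM. The row with the highest mean, Gm27868, was at 20.2 and 49.96 TPM from 1.58 and 2.78 expected counts. Its 102 nt leave an effective length of 3 nt, so this TPM is no measure of level, although the row is among the 10. Gm27477, also among them, had 12 and 10 expected counts and an effective length of 44 nt in replicate 1. Both lie in Hoxa on the opposite strand.

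No source used here says whether counting used the strand. The expected counts of Hoxb2, Hoxb3 and the opposite-strand Hoxb3os were fractional, at 845.85, 93.11 and 246.04 in replicate 1. In each replicate these counts add up to a whole number, so reads were shared out between the strands there. Reads from a Hox gene and its opposite-strand partner thus cannot be told apart where their exons overlap. Of the 13 detected genes, 7 overlap an exon on the opposite strand, 2 an exon of another gene on the same strand, and 5 neither (Hoxa5, Hoxa6, Hoxb4, Hoxb6 and Hoxb7). The overlap covers 52.9% of the exon bases of Hoxb3, 27.3% of those of Hoxb2, both with Hoxb3os, and 3.59% of those of Hoxb5. Hoxa5 and Hoxb5 were thus little touched by it, and Hoxb3 the most.

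The genes next to the clusters had levels of their own. Skap2, beyond the low-numbered end of Hoxa, was at 60.6 and 60.2 TPM, and Evx1, a homeobox gene beyond Hoxa13, at 0.04 and 0 TPM. Mtx2, beyond Hoxd1, was at 88.0 and 74.2 TPM, and Evx2, beyond Hoxd13, at 0 in both. On either side of Hoxc, Smug1 was at 14.8 and 12.3 TPM and Calcoco1 at 51.9 and 56.9 TPM, so the Hoxc genes at 1.14 TPM or less lay between genes that were well expressed. Beside Hoxb, Skap1 was at 1.78 and 3.79 TPM and Ttll6 at 1.86 and 2.31 TPM.

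At the level of transcripts, 5 of the 13 detected genes have 1 annotated transcript and 8 have several. In 7 of these 8 the same transcript led in both replicates, with at least 50% of the TPM of the gene. For Hoxb5 the leading transcript took 97.1% and 96.5%, for Hoxb2 94.95% and 95.7%, and for Hoxb6 91.8% in both. Each of these is a transcript that codes for protein. In Hoxa7, a transcript of 2031 nt annotated as a target of nonsense-mediated decay took 51.7% in replicate 1 and 38.4% in replicate 2, and a transcript of 643 nt annotated as coding for protein took 31.4% and 44.6%, so the leader by TPM changed. By expected counts the transcript of 2031 nt led in both replicates, with 162.82 and 99.29 against 27.84 and 32.5 for that of 643 nt. For Hoxb3, the leading transcript took 59.0% and 52.0%.

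Genes for proteins that bind DNA together with HOX proteins were expressed, and the counts of detected genes that follow stand beside 61.5% of all genes coding for protein. All 9 listed genes of the PBX, MEIS and PKNOX classes, homeodomain cofactors that are part of the TALE family, were detected. Among them were Meis1 at 84.2 and 79.4 TPM and Pknox1 at 32.3 TPM in both. The sum of the Hox genes was 134 and 124 TPM and that of these 9 cofactor genes 232 and 228 TPM. Of 15 genes known to regulate Hox transcription, 11 were detected, among them the retinoic acid receptor genes Rarg at 39.4 and 38.3 TPM and Rara at 29.7 and 31.1 TPM, and the Polycomb genes Ezh2 at 71.3 and 60.6 TPM and Suz12 at 15.2 and 15.4 TPM. The 4 below the level were Cdx1, Cdx2 and Cdx4, which act on Hox genes in the tail region, and Egr2, which acts in the hindbrain. Of 8 genes with known changes in the lungs of mice lacking Hox5 paralogues, 7 were detected, including Wnt2 at 72.2 and 72.8 TPM and Bmp4 at 58.0 and 60.2 TPM, and Wnt2b was at 0.82 and 1.04 TPM.

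Between the replicates, the 13 Hox genes whose mean reached 1 TPM were close. None differed by 2-fold or more on the log2(TPM + 1) scale, which understates changes of low genes, while of all 15493 genes compared 1.92% were 2-fold or more higher in replicate 2 and 0.742% were 2-fold or more lower. The differences, replicate 2 minus replicate 1, ran from -0.36 for Hoxb6 to 0.37 for Hoxb7, with a median of 0.09 and an SD of 0.22, against a median of 0.00 and an SD of 0.38 over all genes compared. In replicate 2, 8 of 13 were higher and 5 lower, where 50.2% of all genes compared were higher. Among the 7 Hox genes whose mean reached 5 TPM the median was -0.17, with 3 higher and 4 lower, so the sign of the median depended on the filter. Over all 10461 genes in the same range of mean level the SD was 0.43, so the Hox spread was within that of genes at like levels.

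**Figure D5:**
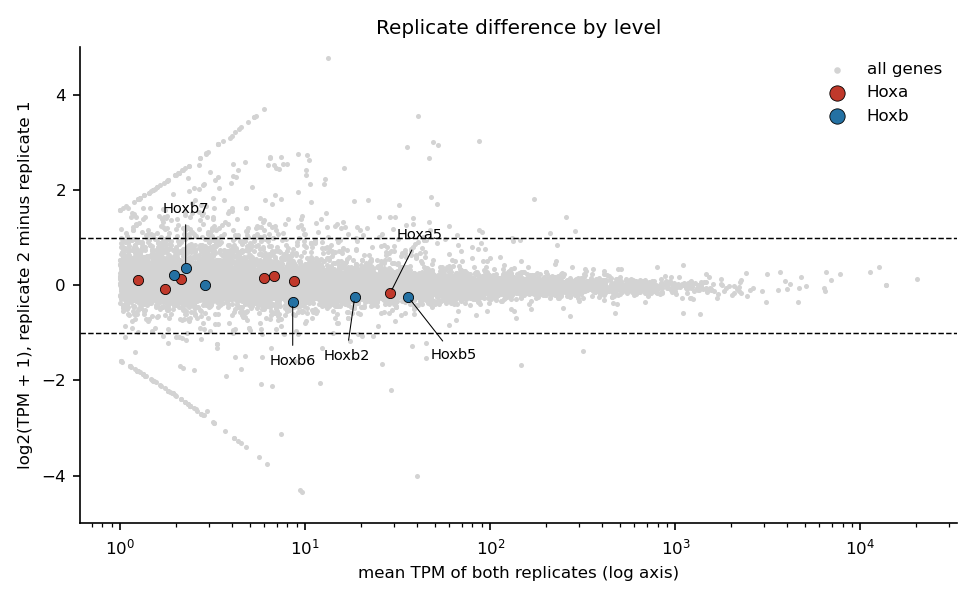
Difference in log2(TPM + 1), replicate 2 minus replicate 1, against the mean TPM on a log axis for all genes whose mean reached 1 TPM (grey) and for the Hoxa (red) and Hoxb (blue) genes among them, with dashed lines at 2-fold. All 13 Hox genes lie inside the dashed lines, from -0.36 for Hoxb6 to 0.37 for Hoxb7.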

How the data were processed

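Whole-lung RNA over 200 nt (10 ng per library) of mouse embryos at day 16.5 was sequenced as total RNA in 2 biological replicates. The authors deposited, per library, a gene table and a transcript table with expected counts, TPM, FPKM, a posterior mean TPM with credibility bounds (taken as a score and not printed) and, for transcripts, the percent of the gene's TPM, made on the mm10 build with GENCODE release M4 according to the text notes beside them. The aligner, the quantification tool and the strand setting are not given in the sources used here. TPM was scaled over every row of a table, including spike-ins and 26248 rows that carry only a number and were not used. Symbols came from GENCODE M21 of the same build by identifier, which matched 42462 of 43346 gene rows.

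The members and all gene lists were chosen with earlier results of these data known. Named genes were all 39 members, every annotated gene overlapping a cluster span, the nearest gene coding for protein on each side, and the lists, except that some items are not reported here. A gene was detected at 1 TPM in both replicates, differences used log2(TPM + 1), and a count of 0 was read as up to 3 counts. For a gene of 2 kb that limit is 0.0604 and 0.0852 TPM in replicates 1 and 2. The replicates differ beyond sampling noise (chi-square per degree of freedom 11.4 over 17794 genes), so they are not 1 library deposited as 2. Because 2 samples of 1 group allow no test, no p-value is given. Scaling alternatives used edgeR 4.0.16 (TMM) and DESeq2 1.42.0 on expected counts rounded to whole numbers. The rest was computed with Python 3.11.15, NumPy 2.4.6, pandas 2.3.3 and SciPy 1.17.1, figures were drawn with matplotlib 3.10.9, and the calculations were tested on simulated counts.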

Additional observations from a re-analysis of the deposited data

How the results depend on the processing

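Of 178 recomputed values, 154 stayed within 1 SD of the reported value or, for counts, within 1.5 times it, 23 moved further and 1 reversed. For replicate differences this SD was the spread over the 13 Hox genes, 0.22 on the log2 scale, which is a wide limit. The count of Hox genes at 2-fold or more was 0 in all 9 settings, and these also stand among the 154. With n = 2, the value of a single replicate always lies within 1 SD of the mean. For the summed level, the shares and the single ratios, the values with 1 replicate left out were therefore among the 154 by construction. They are no sign of stability. The reversal was Hoxa3 over Hoxa2, at -0.54 from TPM and 0.00085 from counts not divided by length. The count of detected Hox genes was 14 at 0.5 TPM, 9 at 2 TPM, 12 by FPKM and 13 by the posterior mean TPM or after rescaling over gene rows, and 13 to 14 with either replicate left out. The summed level was 87.4 by FPKM, a different unit, and 124 to 134 TPM with either replicate left out. From counts not divided by length, Hoxc took 1.51% and Hoxd 0.919% of the Hox sum, and from the posterior mean TPM 1.87% and 1.30%. The share of groups 2 to 6 ran from 88.7% to 92.1% over all alternatives. The sign held in 15 of 16 pairs by counts and by the posterior mean, and in 16 with a pseudocount of 0.1 TPM. The median replicate difference was -0.17 for Hox genes whose mean reached 5 TPM, and between 0.02 and 0.10 under the other 8 settings. Among the Hox genes each of the 9 settings compared, none passed 2-fold; Hoxa9, below the filter on low values, differed by 1.58 on the log2 scale with a pseudocount of 0.1 TPM, against 0.36 with 1 TPM. By the posterior mean share 6 genes, not 7, were led by 1 transcript at 50% or more. Replicate differences and the rule on signs need both replicates, so neither could be recomputed with 1 left out. Depth limits the genes of groups 8 to 13, with at most 21 counts each in a replicate. No paired analysis was possible because the design has a single group.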
